A study of Mus musculus with 20 samples.

Results

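The BCL2 family genes described here were taken by symbol from the deposited count table. They were the survival genes Bcl2, Bcl2l1, Mcl1, Bcl2a1b and Bcl2a1d, the BH3-only genes Bcl2l11, Bbc3 and Bid, and the effector genes Bax and Bak1. All 10 were among the 24421 genes listed, and all 10 were among the 12465 genes with enough counts to be tested. RNA-seq was performed on murine bone marrow-derived dendritic cells (BMDCs), grown for 8 days in GM-CSF at 40 ng/mL, from 5 C57BL/6 mice labelled A to E. Each mouse gave 1 library in each of 4 groups, which makes 20 libraries. Cells of the DMSO Ova group received the DMSO vehicle, given as 5% in the labels, and free ovalbumin (Ova) for 4 hours. The DMSO IC group received DMSO and immune complexes (IC) of ovalbumin with rabbit anti-ovalbumin IgG, which cross-link Fcγ receptors. The iBET Ova and iBET IC groups received 3.3 µM I-BET151 (iBET), a small molecule inhibitor of BET bromodomains, with Ova or IC. Their DMSO content is not given in the sources used here, so the vehicle may differ between the iBET and DMSO groups. The labels describe simultaneous treatment, whereas the methods place iBET before the stimulus. All groups were in culture medium with GM-CSF, no untreated cells were analysed here, and the DMSO Ova group served as the baseline. GM-CSF cultures of bone marrow hold dendritic-like and macrophage-like cells together, and no gate is given beyond a sort into lysis buffer.

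BCL2 family proteins decide whether the outer mitochondrial membrane is breached. BAK and BAX form the pores, BCL2, BCL-XL (encoded by Bcl2l1), MCL1 and A1 (encoded by the Bcl2a1 genes) hold them back, and BH3-only proteins such as BIM (Bcl2l11), PUMA (Bbc3) and BID bind the survival proteins or trigger the effectors directly. In myeloid cells A1 and BCL-XL are known as genes induced through NF-κB, MCL1 is a short-lived protein set by continued transcription, and BIM is known as the protein that limits the life span of dendritic cells. A change in RNA is not a measure of these proteins or of cell death, which the count table does not hold.

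With iBET, both Bcl2a1 rows fell to about 0.35 to 0.41 of their DMSO level, and Bcl2l1 and Bak1 fell to 0.48 to 0.54 of it. Bcl2l11 rose with iBET, to 1.65 times with Ova and 2.18 times with IC. IC moved Bcl2l1 and Bcl2l11 in opposite directions from Ova, with Bcl2l1 up 1.84 times and Bcl2l11 down to 0.59 of its level in DMSO. Mcl1 and Bax stayed within 0.84 to 1.22 times in each of the 4 pairwise comparisons, and Bcl2 met the threshold in none of them, although some of the alternative fits given with its values called it.

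**Figure D1:**
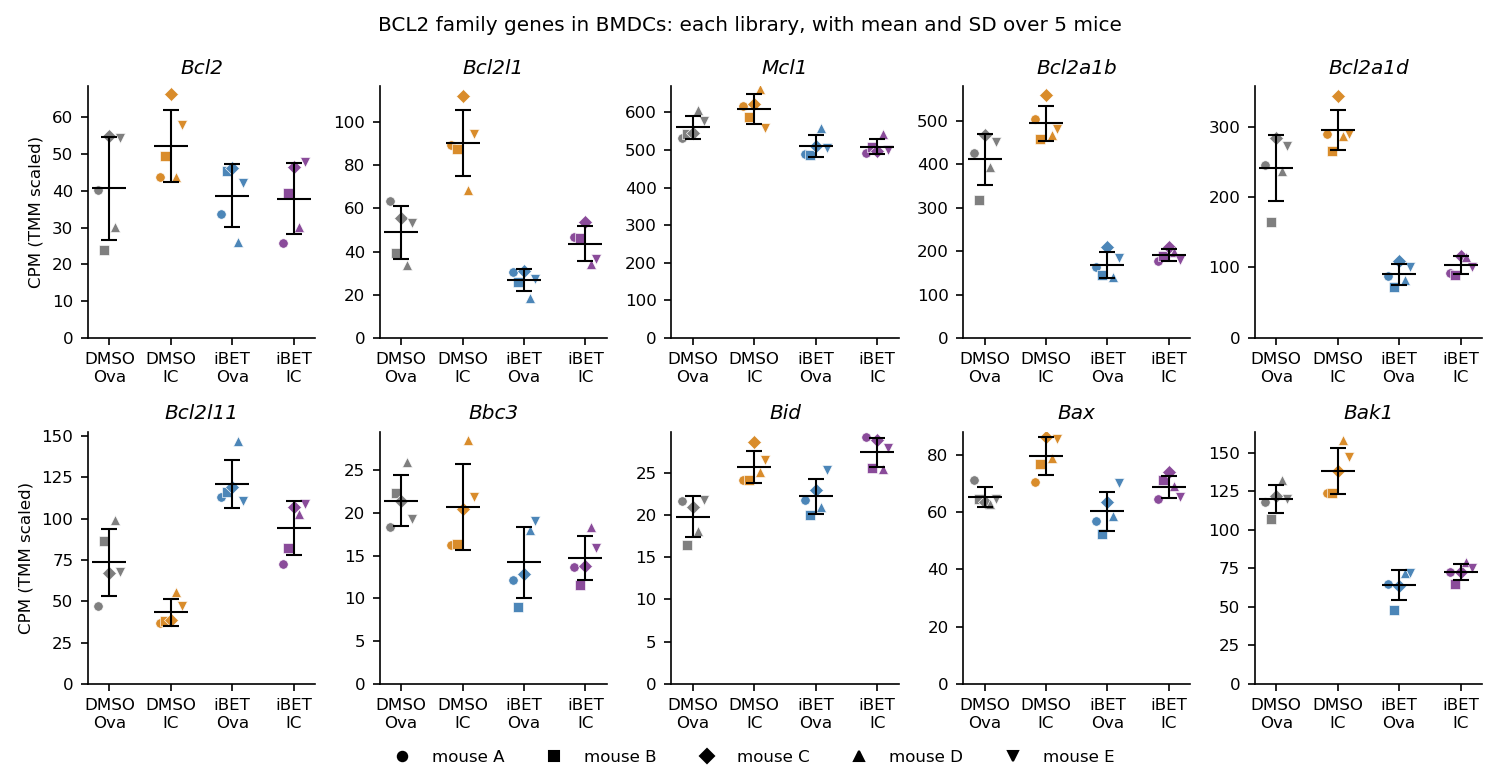
CPM (counts scaled to a common library size, y axis, linear from 0, own scale in each panel) of the 10 BCL2 family genes in the 4 groups (x axis). Symbols are the libraries of mice A to E, and bars give the mean and SD over 5 mice. The iBET groups lie below both DMSO groups for Bcl2a1b, Bcl2a1d and Bak1, and above the DMSO group of the same stimulus for Bcl2l11.

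The promoters of the Bcl2a1 copies are shown because their rows moved together. Mouse carries near-identical A1 copies on chromosome 9, of which Bcl2a1a, Bcl2a1b and Bcl2a1d had counts and Bcl2a1c had 0 to 13 counts in any library. In GENCODE release M21 (GRCm38, the assembly of mm10) Bcl2a1b lies at chr9:89199209-89207827 on the plus strand and Bcl2a1d at chr9:88723285-88731914 on the minus strand. The coding sequences of the 3 expressed copies have 516 bases each and were 97.9% to 98.8% identical between pairs. RefSeq promoter sequence (GRCm38.p6) was found for 10 of the 10 genes and for the other A1 copies. A stretch of 127 bases upstream of each expressed copy is printed 5′ to 3′ on the strand of its gene. Capitals mark a match to TGANTCA, a loosened AP-1 pattern in which N is any base. The centre base is A in all 3 stretches, whereas the usual AP-1 site has C or G there.
Bcl2a1a, chr9:88956720-88956846, plus strand: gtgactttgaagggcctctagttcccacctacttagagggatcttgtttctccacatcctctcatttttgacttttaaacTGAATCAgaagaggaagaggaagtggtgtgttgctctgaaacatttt
Bcl2a1b, chr9:89199029-89199155, plus strand: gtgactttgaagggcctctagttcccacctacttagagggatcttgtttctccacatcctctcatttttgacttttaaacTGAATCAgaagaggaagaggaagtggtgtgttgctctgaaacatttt
Bcl2a1d, chr9:88731918-88732044, minus strand: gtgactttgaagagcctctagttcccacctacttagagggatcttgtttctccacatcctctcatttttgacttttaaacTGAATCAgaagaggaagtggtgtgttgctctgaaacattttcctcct
The stretches of Bcl2a1a and Bcl2a1b had 0 differences over 127 bases. That of Bcl2a1d had 1 mismatch over 121 aligned bases and lacked 6 bases downstream of the match. The match began 100, 100 and 50 bases before the GENCODE starts of Bcl2a1a, Bcl2a1b and Bcl2a1d, and 120, 164 and 114 bases before their RefSeq starts, so its distance depends on the annotation. Both strands of the 250 bases before each RefSeq start were searched. TGANTCA, whose reverse complement is itself, occurred in 6.7% of 32851 promoters, so a match describes the letters and no binding was measured.

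Of the 2 promoters of Bcl2l11, the first held a match to the FOXO letters TGTTTAC and the second held none. The match stood on the strand opposite to the gene, 227 bases before the first RefSeq start. FOXO factors are known activators of the BIM gene. The first 70 bases of that window are printed on the strand of the gene, with the reverse complement of the match in capitals.
Bcl2l11, chr2:128125788-128125857, plus strand: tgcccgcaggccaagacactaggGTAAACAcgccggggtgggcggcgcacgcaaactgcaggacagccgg
TGTTTAC occurred in 3.2% of the promoters, and no FOXO binding was measured. Of the other members, 1 of the 3 promoters of Bbc3, a gene that fell with iBET, also held TGTTTAC. The κB consensus, which 3.9% of promoters held, was in 1 promoter each of Bcl2l1 and Bbc3. Promoters of Bcl2, Mcl1, Bid, Bax and Bak1 held none of these letters within 250 bases.

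The libraries held 16447491 to 29245150 counts (median 21764663), and the smallest count of any member in any library was 166, for Bbc3. The 45S ribosomal RNA gene Rn45s took 2.69% to 8.61% of the counts. Dendritic cell and macrophage markers were present in every group, with summed levels of 4500 to 9520 CPM over 8 dendritic cell genes and 2060 to 3370 CPM over 6 macrophage genes. The summed level of 4 T cell genes was at most 1.17 CPM, with Cd3e at 0 in each iBET IC library. Mast cell and basophil genes summed to 10.3 to 45.8 CPM. Kit was the highest of them on average (6.18 to 33.1 CPM), followed by Gata2 (1.68 to 11.3) and Cpa3 (0.768 to 2.56). Fcer1a and Mcpt8 were near 0. Neutrophil genes summed to 436 to 921 CPM, nearly all of it Mmp8. S100a8 was at 6.85 to 18.4 CPM, S100a9 at 3.5 to 27.1 and Csf3r at 4.0 to 8.95. Elane had at most 1 count in the DMSO Ova group and 0 in the iBET IC group. With iBET, under either stimulus, 2 of the 8 dendritic cell genes fell and 0 rose, 1 of the 6 macrophage genes fell and 1 rose, and 2 of the 9 neutrophil genes tested fell and 1 rose. Of all genes tested 28.9% fell and 27.7% rose with Ova, and 29.0% and 27.1% with IC. Of the 4 genes of dividing cells, 0 passed the test with iBET and Ova and 4 fell with iBET and IC, where they summed to 226 to 292 CPM against 277 to 419 CPM with DMSO. The mice pair the libraries, and a fit with the mouse as a replicate block called more of these markers. With iBET it called 5 dendritic cell genes lower and 1 higher with Ova and 5 lower and 2 higher with IC, 2 macrophage genes lower and 2 higher with IC, and 3 dividing cell genes lower with Ova. With IC against Ova it called 5 dendritic cell genes higher both in DMSO and under iBET, where 0 passed without the block. Dividing cell genes fell there as well, with 1 in DMSO and 1 under iBET without the block and 2 and 4 with it. Of all genes 10.7% in DMSO and 6.63% under iBET fell with IC without the block, and 19.8% and 14.7% with it. With the block 18.3% and 14.2% of all genes rose with IC. For iBET the blocked shares were 35.2% lower and 33.5% higher with Ova, and 35.4% and 32.6% with IC. The part of dividing and dendritic cells in the results below was not tested. In bulk libraries such as these, fewer cells of a type and less RNA per cell cannot be told apart.

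Levels were compared between genes per kb of merged exon (the CPM scale divided by length). In the DMSO Ova group Bcl2a1b stood highest, with 504 ± 72.1 CPM per kb (SD, n = 5), followed by Bcl2a1d with 279 ± 53.9 and Mcl1 with 164 ± 8.77. The effectors came next, with Bak1 at 49.7 ± 3.67 and Bax at 41.5 ± 2.16 CPM per kb. Bcl2l1 (10.7 ± 2.69), Bbc3 (10.1 ± 1.41) and Bcl2l11 (9.16 ± 2.5) lay within an SD of each other, and Bid (5.57 ± 0.679) and Bcl2 (4.44 ± 1.53) were lowest and also within an SD. In the iBET IC group the order at the top was Bcl2a1b (233 ± 16.6), Mcl1 (149 ± 5.85) and Bcl2a1d (119 ± 14.6), and Bax (43.7 ± 2.5) stood above Bak1 (30.2 ± 2.15). The place of the BH3-only gene Bcl2l11 changed most with the group, from rank 10 of the 10 genes in DMSO IC (5.4 ± 1.01 CPM per kb) to rank 6 in iBET Ova (15.1 ± 1.83). These ranks rest on the length that is used, since several members have long exons outside the coding sequence. Per kb of coding sequence Bcl2l11 was at rank 8 in DMSO IC and rank 3 in iBET Ova, and Mcl1 instead of Bcl2a1b was highest in both iBET groups (513 ± 29.3 against 326 ± 56.3 CPM per kb of coding sequence in iBET Ova).

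**Figure D2:**
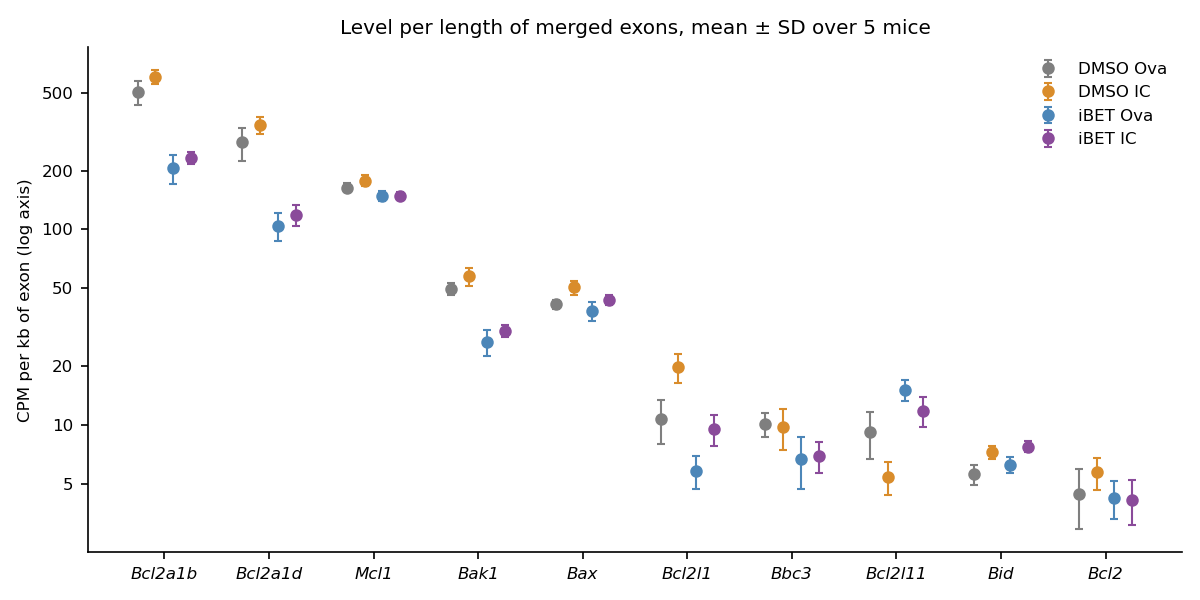
Level per kb of merged exon (y axis, CPM per kb, log axis) of each member in the 4 groups, as mean ± SD over 5 mice, ordered by the DMSO Ova level. The levels run from 504 CPM per kb for Bcl2a1b to 4.44 for Bcl2 in DMSO Ova.

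The comparison of iBET with DMSO asks what BET inhibition does to these genes in cells given Ova and in cells given IC. With Ova, 5 of the 10 members fell (Bcl2a1b, Bcl2a1d, Bcl2l1, Bak1 and Bbc3) and 1 rose (Bcl2l11). Of all genes tested 28.9% fell and 27.7% rose. With IC, 7 members fell, with Mcl1 and Bax joining those 5, and again only Bcl2l11 of the 10 rose, against 29.0% and 27.1% of all genes. The median log2 fold change of the 10 members was -0.36 with Ova and -0.48 with IC, and the median of all genes was -0.0029 and -0.0054. These values are relative to scaling between libraries by TMM, so a change in RNA per cell shared by most genes would not show. The 5 libraries of a group did not overlap those of the other for 5 members with Ova and 6 with IC, against 38.0% and 42.8% of all genes tested. The fit with the replicate block called 6 members lower and 2 higher with Ova, against 35.2% and 33.5% of all genes, and 8 lower and 1 higher with IC, against 35.4% and 32.6%. Bcl2a1b and Bcl2a1d are near-identical copies that may share reads (Pearson's r of log2 CPM 0.995 over the 20 libraries). They are therefore not 2 independent members in these counts, or in those for IC against Ova below. Calls are edgeR quasi-likelihood tests over all genes, with a Benjamini-Hochberg adjusted p under 0.05.

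**Figure D3:**
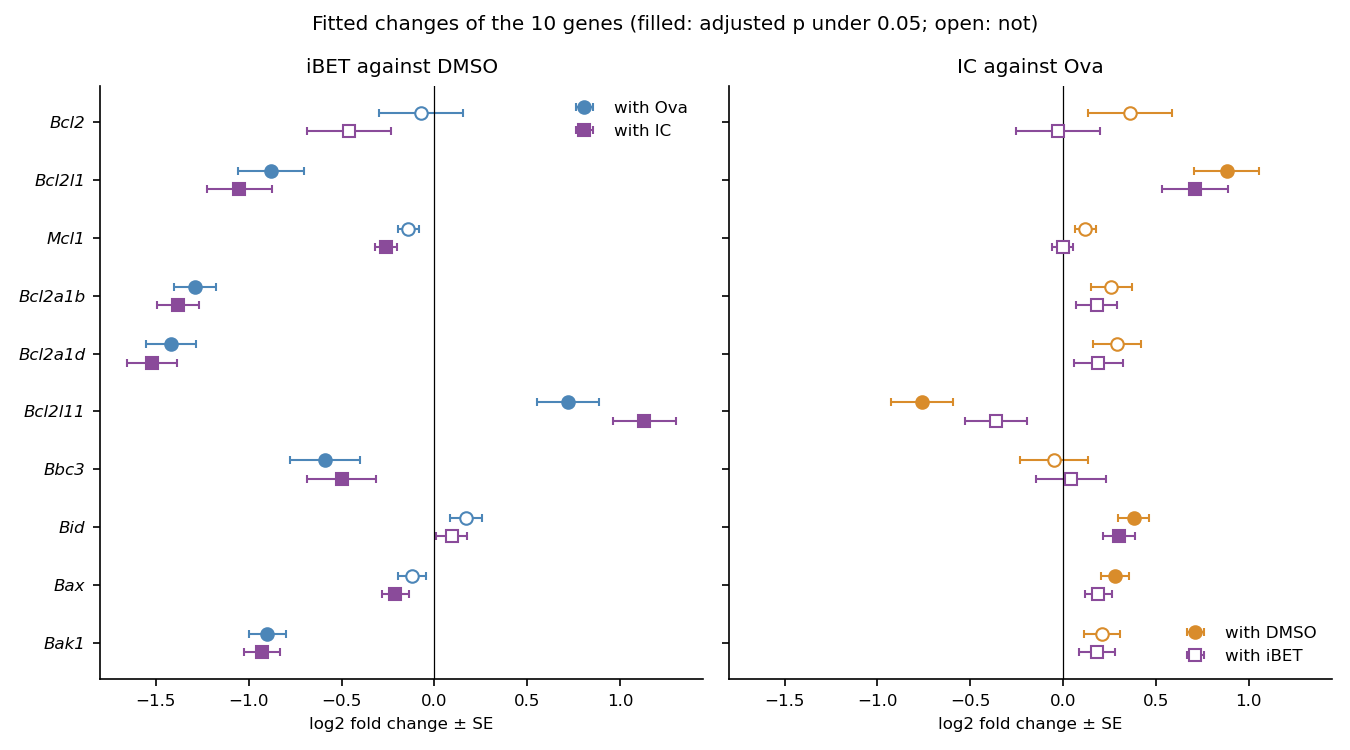
Fitted log2 fold changes (x axis) ± SE of the 10 genes, for iBET against DMSO (left panel, circles with Ova, squares with IC) and for IC against Ova (right panel, circles with DMSO, squares with iBET). Filled symbols passed an adjusted p of 0.05. Bcl2l11 is the 1 filled symbol to the right of 0 in each series of the left panel, and Bcl2l1 and Bid are filled in both series of the right panel.

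Among the survival genes, the A1 rows changed most. A1 is a small survival protein of leukocytes that binds BIM, PUMA and BID. In mice A, B, C, D and E, Bcl2a1b was at 426, 319, 468, 395 and 452 CPM in DMSO Ova and at 164, 144, 210, 140 and 184 CPM in iBET Ova. With IC it was at 506, 458, 560, 468 and 481 CPM in DMSO and at 177, 190, 209, 199 and 179 CPM in iBET. Each iBET library was below each DMSO library, and the lowest DMSO value was that of mouse B with Ova. The fall was -1.29 ± 0.112 (log2 fold change ± SE, edgeR adjusted p = 7.72e-09) with Ova and -1.38 ± 0.112 (adjusted p = 3.18e-09) with IC.

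Bcl2a1d followed the same pattern at a lower level. Its values in mice A to E were 246, 165, 284, 237 and 272 CPM in DMSO Ova against 87.7, 72.3, 109, 81.6 and 100 CPM in iBET Ova. In IC they were 289, 266, 344, 287 and 290 CPM with DMSO against 91.8, 89.5, 116, 115 and 100 CPM with iBET. The groups did not overlap in either comparison. Its log2 fold change was -1.42 ± 0.134 (adjusted p = 2.51e-08) with Ova and -1.52 ± 0.134 (adjusted p = 9.79e-09) with IC. The share of the A1 counts held by each copy moved little, with Bcl2a1b at 43.5% ± 1.29 of their sum in DMSO Ova and 45.1% ± 0.97 in iBET Ova, and Bcl2a1d at 25.2% ± 0.946 and 24.2% ± 0.919. How the counting treated reads that match several copies is not given in the sources used here, and 31.1% of the 100-base windows of the Bcl2a1b transcript and 54.7% of those of Bcl2a1d were identical to another copy. The values of single copies are therefore uncertain. Summed to 1 row, the A1 copies changed by -1.35 ± 0.115 with Ova and -1.42 ± 0.116 with IC (adjusted p = 6.69e-09 and 3.33e-09).

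Bcl2l1 encodes BCL-XL, which holds both BAK and BAX in check. In mice A to E it was at 63.6, 39.1, 55.5, 33.6 and 53 CPM in DMSO Ova, and at 30.4, 25.8, 31.2, 18.4 and 27.2 CPM in iBET Ova. In IC the values were 89.2, 87.5, 112, 68.7 and 94.6 CPM with DMSO and 46.9, 46.1, 53.9, 34.2 and 36.7 CPM with iBET. Mouse D gave the lowest value in each of the 4 groups, and the iBET values were below the DMSO values with no overlap under either stimulus. Bcl2l1 fell by 0.88 ± 0.178 on the log2 scale with Ova (adjusted p = 0.000301) and by 1.05 ± 0.176 with IC (adjusted p = 4.22e-05). The iBET IC and DMSO Ova values overlapped, with means of 43.6 ± 8.06 and 49.0 ± 12.3 CPM (SD, n = 5).

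Mcl1 and Bcl2 moved less. Mcl1, whose protein is turned over within hours, ranged from 533 to 605 CPM in DMSO Ova, 487 to 558 in iBET Ova, 557 to 661 in DMSO IC and 493 to 543 in iBET IC. All 5 mice had lower values with iBET under both stimuli, and the groups overlapped with Ova but not with IC. Its log2 fold change was -0.14 ± 0.0582 with Ova (adjusted p = 0.0526, 0.00685 in the fit with the replicate block, 0.0312 by DESeq2 and 0.0489 without mouse D) and -0.26 ± 0.0583 with IC (adjusted p = 0.000808). Bcl2, the first survival gene of the family to be known, ranged from 24.0 to 54.8 CPM in DMSO Ova and 26.0 to 46.3 CPM in iBET Ova. With IC its range was 43.7 to 66.4 CPM in DMSO and 25.9 to 47.9 CPM in iBET, and the groups overlapped under both stimuli. Its log2 fold change was -0.074 ± 0.225 with Ova (adjusted p = 0.798). With IC it was -0.46 ± 0.224 (adjusted p = 0.0849). All 5 mice were lower there, and the fit with the replicate block called it (-0.48, adjusted p = 0.00445). It also passed with surrogate variables (adjusted p = 0.0067) and in the 10 libraries compared (0.0495).

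Bcl2l11 was the 1 member called higher with iBET. Its product BIM is a BH3-only protein that binds all of the survival proteins above. In mice A to E Bcl2l11 was at 46.9, 86.7, 67.3, 99.2 and 67.7 CPM in DMSO Ova and at 113, 116, 119, 147 and 111 CPM in iBET Ova. With IC it was at 36.8, 38.2, 38.6, 55.8 and 47.2 CPM in DMSO and at 72.6, 82.0, 107, 103 and 109 CPM in iBET. Each iBET value was above each DMSO value under the same stimulus, and mouse D was highest in both DMSO groups and in iBET Ova. The log2 fold change was 0.72 ± 0.168 with Ova (adjusted p = 0.0011) and 1.13 ± 0.17 with IC (adjusted p = 1.23e-05).

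The other BH3-only genes did not pass the test as higher, although Bid did so in some alternatives. Bbc3, which encodes the p53-responsive protein PUMA, ranged from 18.3 to 26.0 CPM in DMSO Ova, 9.00 to 19.0 in iBET Ova, 16.3 to 28.5 in DMSO IC and 11.6 to 18.4 in iBET IC. These ranges overlapped under both stimuli, but iBET was lower within each of the 5 mice. Bbc3 changed by -0.59 ± 0.187 with Ova (adjusted p = 0.0109) and by -0.5 ± 0.187 with IC (adjusted p = 0.0284). With Ova the call was lost without mouse B (adjusted p = 0.0615) or C (0.0686), and with IC without mouse C (0.112) or E (0.0574). Bid, which encodes the protein that caspase-8 cleaves to link death receptors to mitochondria, ranged from 16.4 to 21.8 CPM in DMSO Ova and 20.0 to 25.3 CPM in iBET Ova. It differed by 0.17 ± 0.0849 on the log2 scale with Ova (adjusted p = 0.0991, and 0.0164 with the replicate block) and by 0.093 ± 0.084 with IC (adjusted p = 0.363). Bid was higher with iBET in 5 of 5 mice under both stimuli. With Ova it also passed by DESeq2 with the block (0.0202), with surrogate variables (0.0139) and in mice C, D and E only (0.0459). With IC it passed with surrogate variables (0.0124).

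The effector genes Bak1 and Bax, whose products each form pores, differed from one another. Bak1 was at 118, 107, 122, 132 and 120 CPM in DMSO Ova and at 65.0, 47.9, 63.7, 71.9 and 72.0 CPM in iBET Ova (mice A to E). In IC it was at 124, 124, 138, 158 and 147 CPM with DMSO and at 72.4, 64.6, 72.6, 78.8 and 74.9 CPM with iBET. The groups did not overlap, and the change was -0.9 ± 0.0978 with Ova (adjusted p = 1.87e-07) and -0.93 ± 0.0976 with IC (adjusted p = 1.14e-07). Bax ranged from 62.9 to 71.4 CPM in DMSO Ova, 52.5 to 70.3 in iBET Ova, 70.7 to 86.4 in DMSO IC and 64.5 to 74.0 in iBET IC, and its groups overlapped. It changed by -0.12 ± 0.074 with Ova (adjusted p = 0.189) and by -0.21 ± 0.0738 with IC (adjusted p = 0.0201), a call that was lost without mouse C (adjusted p = 0.084), D (0.0624) or E (0.0811). Within a library, Bax had 0.478 to 0.605 counts per Bak1 count in DMSO Ova and 0.816 to 1.1 in iBET Ova, and 0.498 to 0.628 in DMSO IC against 0.874 to 1.1 in iBET IC. This ratio does not depend on the scaling between libraries, and the ranges with and without iBET did not overlap.

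The exons of Bcl2, Bid and Bak1 overlap exons of D630008O14Rik, Bcl2l13 and Ggnbp1 on the opposite strand, and those of Bcl2a1b and Bax overlap Gm29094 and Gm45808 on the same strand. Whether the counting used the strand is not given in the sources used here, so reads of the opposite-strand pairs may not have been told apart. Counting by strand would not separate the reads of the same-strand pairs.

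The comparison of IC with Ova asks what Fcγ receptor cross-linking does to the family. In DMSO, 3 of the 10 members rose (Bcl2l1, Bid and Bax) and 1 fell (Bcl2l11), against 9.59% of all genes tested that rose and 10.7% that fell. Under iBET, 2 rose (Bcl2l1 and Bid) and 0 fell, against 5.19% and 6.63% of all genes. The median log2 fold change of the members was 0.27 in DMSO and 0.18 under iBET, beside -0.0237 and -0.0141 for all genes. The libraries of the groups did not overlap for 2 members in DMSO and 3 under iBET, against 12.4% and 10.0% of all genes. With the mouse as a replicate block 8 members were higher and 1 lower in DMSO, against 18.3% and 19.8% of all genes, and 4 were higher and 1 lower under iBET, against 14.2% and 14.7%. Under iBET the count of 2 members became 1 without mouse A or D and 0 without mouse B or C. Scaling by library size alone moved the median of all genes by -0.108 in DMSO and -0.107 under iBET and lowered the share of rises among the genes called from 47.3% to 18.3% and from 43.9% to 13.4%. Changes are given relative to the TMM scale, on which both medians were near 0.

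Bcl2l1 was the member with the largest rise with IC. Its DMSO values of 68.7 to 112 CPM with IC lay above the 33.6 to 63.6 CPM with Ova in all libraries, and its iBET values of 34.2 to 53.9 CPM with IC lay above the 18.4 to 31.2 CPM with Ova. The log2 fold change was 0.88 ± 0.176 in DMSO (adjusted p = 0.00157) and 0.71 ± 0.178 under iBET (adjusted p = 0.0128), higher in 5 of 5 mice in both. Under iBET the call was lost without mouse B (adjusted p = 0.0669) or C (0.0508). The folds were 1.84 in DMSO and 1.64 under iBET, where the Ova level was lower.

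Bcl2l11 went the other way. Its DMSO values fell from 46.9 to 99.2 CPM with Ova to 36.8 to 55.8 CPM with IC, with 5 of 5 mice lower and the ranges overlapping in mouse A's Ova library. The fall was 0.76 ± 0.169 on the log2 scale (log2 fold change -0.76, adjusted p = 0.00361). Under iBET the values were 111 to 147 CPM with Ova and 72.6 to 109 CPM with IC, which did not overlap. There the log2 fold change was -0.36 ± 0.167 (adjusted p = 0.176), and with the replicate block it passed the test (-0.37, adjusted p = 0.0183).

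Bid rose from 16.4 to 21.8 CPM with Ova to 24.1 to 28.6 CPM with IC in DMSO, without overlap (log2 fold change 0.38 ± 0.0846, adjusted p = 0.00386). Under iBET its range was 20.0 to 25.3 CPM with Ova and 25.4 to 29.2 CPM with IC, again without overlap (0.3 ± 0.0844, adjusted p = 0.024). The iBET call was lost without mouse A (adjusted p = 0.105), B (0.0525), C (0.102) or D (0.084), and under scaling by library size (0.146). Bax rose by 0.28 ± 0.0738 on the log2 scale in DMSO (adjusted p = 0.0107), in 4 of 5 mice. That call was lost without mouse C (adjusted p = 0.0977) or D (0.0687), and under scaling by library size (0.108). Under iBET its value was 0.19 ± 0.074 (adjusted p = 0.104, 0.0395 with the replicate block and 0.0387 without mouse E).

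The A1 rows, Bak1, Mcl1 and Bcl2 did not pass the test with IC in DMSO, and all 5 passed with the mouse as a replicate block. Without the block, Bcl2 passed with surrogate variables (adjusted p = 0.00196), and Bak1 passed with surrogate variables (0.0281) and in mice C, D and E only (0.0159). Bcl2a1b was higher with IC in 5 of 5 mice in DMSO (0.26 ± 0.11, adjusted p = 0.0966, blocked 0.00792), and so was Bcl2a1d (0.29 ± 0.131, adjusted p = 0.123, blocked 0.00336). Bak1 was also higher in 5 of 5 mice (0.21 ± 0.0966, adjusted p = 0.136, blocked 0.00572). For Bcl2 the value was 0.36 ± 0.224 (adjusted p = 0.278, blocked 0.0343) and for Mcl1 0.12 ± 0.0582 (adjusted p = 0.155, blocked 0.0284). Under iBET the edgeR fit with the block called Bak1 of these 5 (0.18 ± 0.0974, adjusted p = 0.254, blocked 0.0157), and DESeq2 with the block called Bak1 (0.00641), Bcl2a1b (0.044) and Bcl2a1d (0.0481). Bbc3 had values of -0.05 ± 0.184 in DMSO and 0.042 ± 0.188 under iBET (adjusted p = 0.893 and 0.922).

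**Figure D4:**
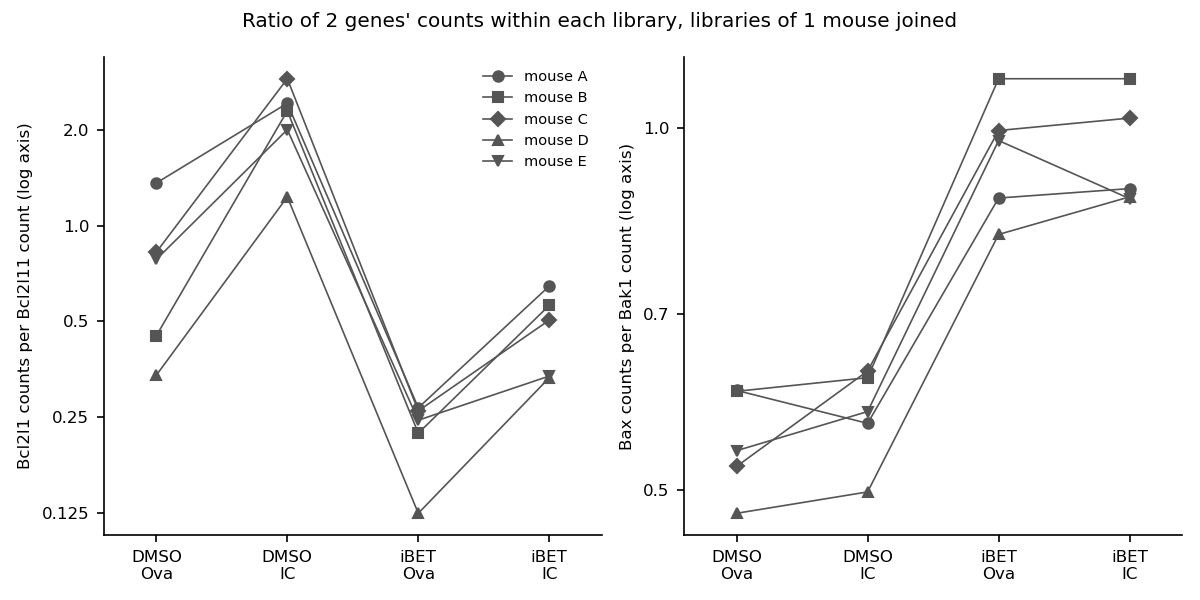
Counts of Bcl2l1 per count of Bcl2l11 (left) and of Bax per count of Bak1 (right) within each library (y axes, ratio, log axes) in the 4 groups, with the libraries of a mouse joined by a line. The Bcl2l1 ratio is lowest in iBET Ova (0.125 to 0.268) and highest in DMSO IC (1.23 to 2.89).

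The opposite moves of Bcl2l1 and Bcl2l11 were also set side by side as a ratio of their counts within each library, which is free of the scaling between libraries. In mice A to E there were 1.36, 0.451, 0.825, 0.339 and 0.783 Bcl2l1 counts per Bcl2l11 count in DMSO Ova. With IC the ratio was 2.42, 2.29, 2.89, 1.23 and 2.00 in DMSO, above the Ova value in each mouse, and only mouse D with IC lay below the highest Ova value, that of mouse A. The iBET Ova libraries had ratios of 0.268, 0.223, 0.262, 0.125 and 0.245, and the iBET IC libraries had 0.646, 0.562, 0.505, 0.333 and 0.337. The iBET Ova group lay below each of the other 3 groups without overlap, while iBET IC overlapped DMSO Ova. Bcl2a1b gave 3.68 to 9.09 counts per Bcl2l11 count in DMSO Ova, 8.40 to 14.5 in DMSO IC, 0.956 to 1.76 in iBET Ova and 1.65 to 2.43 in iBET IC. Mcl1, whose own level moved little, gave 6.10 to 11.4, 11.8 to 16.8, 3.80 to 4.54 and 4.6 to 6.80 in the same order. The lengths of the genes differ, so these ratios compare groups and not the abundance of one gene with another, and they describe values already given.

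The interaction asks whether iBET acted differently with IC than with Ova. Of the 10 members 0 passed it in edgeR and 0 had an unadjusted p under 0.05 (lowest 0.104, Bcl2l11), and 0.0401% of all genes did (5 genes; 543 of 12465 at an unadjusted p under 0.05). No member passed it in any alternative, DESeq2 included. The largest member values were 0.4 ± 0.237 for Bcl2l11, -0.39 ± 0.317 for Bcl2 and -0.17 ± 0.249 for Bcl2l1, so differences of that size could not be told from 0 at these SEs. The comparisons with iBET under Ova and under IC use different libraries, but these come from the same 5 mice. Each also shares its groups with the comparisons of IC and Ova. The 4 sets of fold changes are therefore not independent of one another.

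Among the other genes of the pathway, 16 further BCL2 family genes were listed and 10 of them were tested. With iBET and Ova 1 rose and 6 fell (median log2 fold change -0.54), and with IC 2 rose and 6 fell (median -0.71). Of all genes tested 27.7% rose and 28.9% fell with Ova, and 27.1% and 29.0% with IC. For IC against Ova 9.59% rose and 10.7% fell in DMSO, and 5.19% and 6.63% under iBET. Counts of all 5 further lists stand beside these shares, and some are near them. The shares with the replicate block are those given above for the members. Bmf, a BH3-only gene, fell by 1.52 ± 0.233 and 1.65 ± 0.235 on the log2 scale with Ova and with IC (adjusted p = 1.53e-05 and 5.93e-06). Pmaip1, which encodes the MCL1-binding protein NOXA, changed by -0.75 ± 0.258 and -0.76 ± 0.257 (adjusted p = 0.0184 and 0.0166), calls that were lost without mouse C (0.0651 and 0.0757) or D (0.0674 and 0.0718), and with Ova without E (0.0634). Bcl2a1a, the third A1 copy, changed by -1.38 ± 0.109 and -1.39 ± 0.109, and its count is uncertain like those of the copies above. Its fall is therefore not independent of theirs. The survival gene Bcl2l2, which encodes BCL-W, changed by -0.57 ± 0.125 with Ova and -0.83 ± 0.126 with IC (adjusted p = 0.000596 and 1.34e-05). Bnip3, a mitophagy gene, rose by 0.62 ± 0.126 with Ova and 0.39 ± 0.124 with IC (adjusted p = 0.000291 and 0.011). With IC against Ova in DMSO 1 rose, Bnip3 (0.56 ± 0.126), and 1 fell, Bad (-0.24 ± 0.0836, adjusted p = 0.0462), whose product binds BCL2 and BCL-XL. With the replicate block 2 rose and 2 fell there, and under iBET 1 rose and 3 fell against 0 and 1 without the block. The call of Bad was lost whichever mouse was left out (adjusted p = 0.161, 0.112, 0.162, 0.0855 and 0.053 without A to E).

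Of 18 genes of the apoptosome, the caspases and their inhibitors, 5 rose and 7 fell with iBET and Ova, and 6 rose and 7 fell with IC. The median was -0.01 in both. Birc3, which encodes the ubiquitin ligase cIAP2, fell by 1.51 ± 0.108 with Ova and 1.55 ± 0.108 with IC (adjusted p = 6.23e-10 and 3.69e-10). Birc2 (cIAP1) changed by -0.88 ± 0.157 with Ova and -0.81 ± 0.157 with IC (adjusted p = 8.86e-05 and 0.000195). Htra2, a mitochondrial protease, changed by -0.84 ± 0.128 and -0.87 ± 0.128. Endog, a mitochondrial nuclease, rose by 0.9 ± 0.0965 and 0.94 ± 0.0971, and the executioner caspase gene Casp6 rose by 0.79 ± 0.103 and 0.92 ± 0.105. With IC against Ova in DMSO 3 rose and 3 fell. They included Birc3 (0.34 ± 0.104), Cycs (0.31 ± 0.101), which encodes cytochrome c, Casp2 (-0.68 ± 0.104) and Casp6 (-0.32 ± 0.105). The call of Birc3 was lost without B (adjusted p = 0.0539), C (0.0696) or E (0.0778), that of Cycs without B (0.0858), C (0.217) or D (0.15), and that of Casp6 without B (0.178), C (0.122), D (0.0582) or E (0.0997). Under iBET 0 rose and 1 fell with IC, the dividing cell gene Birc5 (-0.64 ± 0.0882), and with the replicate block 2 rose and 2 fell.

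All 10 genes of death receptor signalling passed the test with iBET, with 4 higher and 6 lower under both stimuli and medians of -0.34 and -0.38. The shares of all genes tested were 27.7% higher and 28.9% lower with Ova, and 27.1% and 29.0% with IC. The receptor gene Fas changed by -0.88 ± 0.151 with Ova and -1.14 ± 0.151 with IC (adjusted p = 5.32e-05 and 2.57e-06). Mlkl, the effector of necroptosis, changed by -1.03 ± 0.127 and -0.79 ± 0.126. The initiator caspase gene Casp8 changed by -0.54 ± 0.0577 with Ova and its inhibitor Cflar (cFLIP) by -0.69 ± 0.11 with IC, while the adaptor gene Tradd rose by 0.7 ± 0.108 and 0.77 ± 0.109. Casp8 and Cflar were also called lower under the other stimulus. Cflar was the 1 gene of the 10 called with IC against Ova in DMSO, where it rose by 0.56 ± 0.11 (adjusted p = 0.00137), and with the replicate block 1 gene rose and 1 fell there.

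Of 11 genes of p53 and its targets, 4 rose and 5 fell with iBET and Ova, and 1 rose and 5 fell with IC, with medians of -0.04 and -0.1. Sesn1 rose by 1.11 ± 0.09 and 1.16 ± 0.0907, and Phlda3 changed by -1.09 ± 0.143 and -1.03 ± 0.142. The cell cycle inhibitor gene Cdkn1a (0.61 ± 0.227, adjusted p = 0.0272) and Trp53inp1 (0.47 ± 0.154) rose with Ova, the former not without mouse D (adjusted p = 0.0771) or E (0.0587). With IC their means were 186 and 77.1 CPM in DMSO and 255 and 95.9 CPM in iBET, and neither passed. Mdm2 (-0.42 ± 0.0707), which encodes the ligase that degrades p53, and Aen (-0.43 ± 0.121) fell with IC. These falls were not particular to IC, since both genes were also lower with iBET under Ova. There the mean of Mdm2 was 84.6 CPM in DMSO and 64.9 CPM in iBET, and that of Aen 19.8 and 15.9 CPM. Mdm2 rose with IC against Ova by 0.44 ± 0.0707 in DMSO and 0.41 ± 0.0709 under iBET, and Sesn2 changed by -0.42 ± 0.109 under iBET, a call lost without mouse A (adjusted p = 0.0687), D (0.0653) or E (0.0632).

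The last list held 11 genes for the control of BIM and MCL1 and for partners of BAK and BAX. With iBET 6 rose and 1 fell under both stimuli, with medians of 0.42 and 0.35. Foxo1 and Foxo3, which encode activators of the BIM gene, rose by 0.67 ± 0.166 and 0.54 ± 0.119 with Ova and by 0.82 ± 0.167 and 0.49 ± 0.119 with IC (adjusted p = 0.00192, 0.000645, 0.000321 and 0.00166). Mapk8, which encodes the kinase JNK1, rose by 1.01 ± 0.078 and 0.89 ± 0.0776, and Fbxw7, a ligase subunit that marks MCL1 for degradation, rose by 0.68 ± 0.0955 and 0.72 ± 0.095. With IC against Ova in DMSO 2 rose, Vdac2 (0.24 ± 0.0629), whose product binds BAK, and the co-chaperone gene Bag3 (0.27 ± 0.0832). With the replicate block 3 rose and 1 fell. The call of Vdac2 was lost without mouse C (adjusted p = 0.0908) or D (0.0808) and that of Bag3 without A (0.156) or E (0.156). Of these 5 lists 0 genes passed the interaction.

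**Figure D5:**
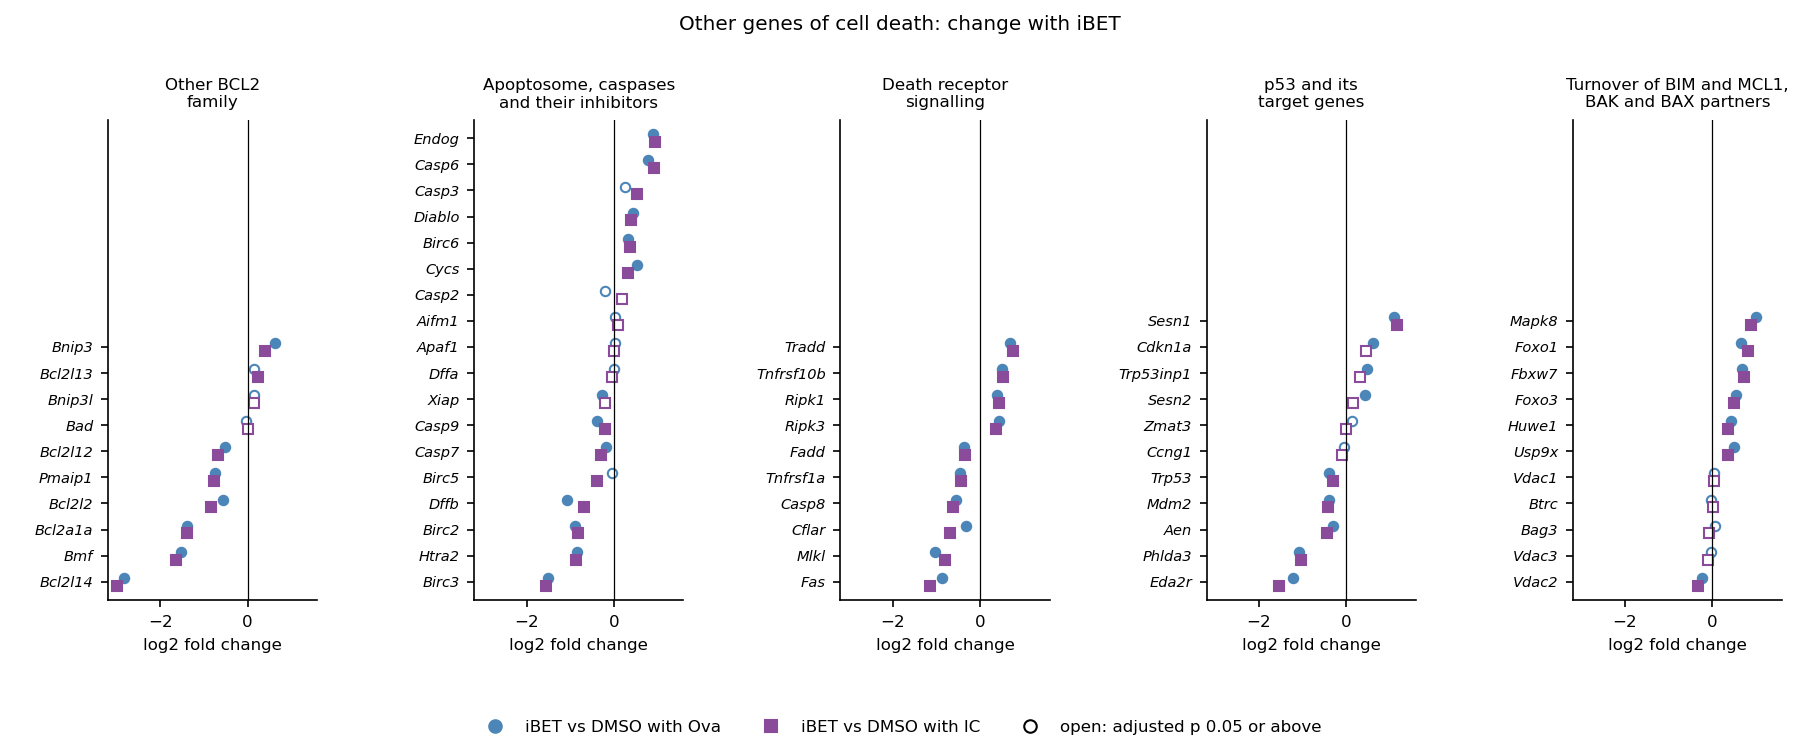
Log2 fold change with iBET (x axes) of each tested gene of the 5 further lists, with Ova (circles) and with IC (squares). Filled symbols passed an adjusted p of 0.05. Bcl2l14, Bmf, Bcl2a1a, Birc3, Eda2r and Phlda3 lie beyond -1 under both stimuli and Sesn1 beyond 1 (Bcl2l14 and Eda2r, at most 85 and 79 counts in a library, were named after their values were seen), and in the last list Mapk8, Foxo1, Fbxw7, Foxo3, Huwe1 and Usp9x are filled on the right.

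Patterns over the 20 libraries were compared with those of 9781 other genes with a mean of at least 100 counts. By Pearson's r of log2 CPM, the genes most like Bcl2l1 were Ccl3 (0.97) and Lrrc59 (0.961), and those most like Bcl2l11 were Cnnm3 (0.967) and Map3k9 (0.962). Bak1 was most like Slc25a12 (0.985) and Plekho1 (0.983), and Mcl1 most like Znrf2 (0.933) and Cd24a (0.9). Bcl2a1b was most like Bcl2a1a (0.998) and Bcl2a1d (0.995), and Bcl2a1d was most like Bcl2a1b and Bcl2a1a (0.995 each). The A1 copies share sequence, and how shared reads were counted is not given, so likeness between their rows may partly reflect the counting. The nearest genes were Spred1 (0.873) and Nol10 (0.858) for Bcl2, Pafah1b3 (0.925) and Ppap2c (0.919) for Bbc3, Eif5a (0.925) and Ubqln1 (0.903) for Bid, and Snrpc (0.908) and Pfn1 (0.904) for Bax. The 20 points share the 4 treatments and the 5 mice, so these values describe likeness of pattern and carry no test.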

How the data were processed

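Reads were trimmed, aligned with HISAT2 (mm10) and assigned to genes by featureCounts, and the authors deposited the resulting raw counts, 1 column for each library. Which annotation was used, whether strand was considered and how reads with several matches were handled are not given in the sources used here. A second deposited table of size-factor-scaled values was not used. Genes passing filterByExpr (12465 of 24421 listed, of which 6187 had no count) were scaled by TMM and fitted in edgeR 4.0.16 (R 4.3.3) with 4 group means over 20 libraries. Quasi-likelihood p-values were adjusted (Benjamini-Hochberg) over those genes. CPM uses TMM-scaled library sizes. Log2 values for likeness used a prior count of 2. P-values measure the spread between cultures of 5 mice. The mouse labels pair the libraries: deviations from group means correlated at 0.524 on average over 30 same-mouse pairs (lowest 0.307). Libraries of a group differed beyond counting error (chi-square per degree of freedom at least 12.6 in 40 pairs), so errors are SDs or fitted SEs, and intervals for counting error are not given. On simulated counts for iBET against DMSO with Ova (12341 genes), 106 genes were changed by 0.5 and 94 by 1 (log2). Of these 50.9% and 78.7% were recovered, and 2.29% of the calls were false. The simulation held no mouse effect and changed far fewer genes than the 7057 called in the data. Its rates therefore need not hold for these data.

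The 10 genes and the 5 further lists were chosen with earlier results of these data known. From each list, up to 4 called genes per contrast with the largest change and a mean of at least 100 counts were named, and 2 most similar genes for each member. A gene given for 1 stimulus can therefore have changed under the other as well. For some named genes the value under the other stimulus was added. Exon lengths and positions came from GENCODE M21, promoters from RefSeq (GRCm38.p6), each searched over 250 bases. Alternatives were the mouse as a replicate block, DESeq2 1.42.0 with and without it, DESeq2 size factors or library size only, 3 surrogate variables (sva 3.50.0), no filter on low counts, the 10 libraries compared, leaving out each mouse, mice A and B or C, D and E only, and the A1 rows summed. Levels of the B cell marker list are not reported here.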

Additional observations from a re-analysis of the deposited data

Results flagged for a closer look

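In 3 of the 40 sets of 5 libraries (10 genes in 4 groups), 1 library stood apart by Dixon's test. Chance alone would mark about 1 in 20 sets. Mcl1 in iBET IC was at 543 CPM in mouse D, with the other mice at 493 to 507 CPM. Bcl2l11 in iBET Ova was at 147 CPM in mouse D, with the others at 111 to 119 CPM. Bax in DMSO Ova was at 71.4 CPM in mouse A, with the others at 62.9 to 64.8 CPM.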

How the results depend on the processing

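Of 750 single-member values under the alternatives, 653 kept their direction and side of the threshold, 29 lost and 40 gained significance, and 28 changed sign. Each reversal was of a value that had not passed the test. With iBET, the falls of Bcl2a1b, Bcl2a1d, Bcl2l1 and Bak1 and the rise of Bcl2l11 passed in all alternatives under both stimuli, and so did the fall of Mcl1 with IC. Of 795 values of named list genes, 738 kept their call, 57 lost it and 0 reversed. The causes of these changes were not tested. No alternative varied the depth. The smallest count of a member in any library was 166.

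Genes called for IC against Ova in DMSO (2531) became 4755 with the replicate block, 4611 by DESeq2 with that block, 4062 with surrogate variables and 500 in mice A and B only, and ranged from 1180 to 2477 without 1 mouse. Members called there (4) became 9 with the replicate block in either tool and 0 in mice A and B only. Under iBET, genes called (1474) became 3601 with the replicate block, 3586 by DESeq2 with it, 2343 with library size only, 3102 with surrogate variables and 296 in mice A and B only, and ranged from 643 to 1177 without 1 mouse. The 2 members called became 5 with the replicate block, 7 by DESeq2 with it, 4 with surrogate variables, 1 with library size only, 0 in mice A and B only and in mice C, D and E only, and 0 to 3 without 1 mouse. The 5 genes of the interaction became 102 with the replicate block, 184 by DESeq2 with it, 24 by DESeq2 without it, 47 with surrogate variables, 0 in mice A and B only and 13 in mice C, D and E only, and 0 to 2 without 1 mouse. For iBET against DMSO the block moved the counts of all genes and of members by less than 1.5 times. Counts of list and marker genes that it moved by more are given with the lists, and for IC against Ova the p53 list went from 1 to 3 genes called in DMSO, the death receptor and turnover lists from 0 to 2 each under iBET, the macrophage genes from 0 to 2 in DMSO and 0 to 3 under iBET, the neutrophil genes from 0 to 2 in both, and the mast cell genes from 0 to 1 under iBET. With iBET and IC the mast cell genes went from 1 to 2, and for the interaction the macrophage and dividing cell genes went from 0 to 1 each.

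Reversed values (log2 fold changes) were as follows. With iBET and Ova, Bcl2 was 0.29 in mice A and B only and -0.24 to 0.021 without 1 mouse, and Bax was 0.057 in mice C, D and E only. With IC against Ova in DMSO, Bbc3 was 0.1 in mice C, D and E only and -0.11 to 0.045 without 1 mouse. Under iBET, Bcl2 was 0.21 with surrogate variables, 0.12 in mice C, D and E only and -0.094 to 0.036 without 1 mouse. Mcl1 was 0.00056 by DESeq2 with the replicate block, 0.0031 in the 10 libraries compared, 0.049 in mice A and B only and -0.021 to 0.011 without 1 mouse. Bbc3 was -0.064 with library size only, -0.12 with surrogate variables, -0.059 in mice C, D and E only and -0.011 to 0.14 without 1 mouse. For the interaction, Bcl2l1 was 0.025 and Bid 0.0079 with surrogate variables, and Bbc3 was -0.16 in mice C, D and E only and -0.056 to 0.24 without 1 mouse. In mice A and B only Bid was 0.079, Bax 0.22 and Bak1 0.16, and without 1 mouse Bax was -0.17 to 0.015 and Bak1 -0.087 to 0.027.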
